A study of Caenorhabditis elegans with 2 samples.

Results

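Of 55 Caenorhabditis elegans genes with the symbols used for spliceosome and SR proteins, 33 (60.0%, 45.9 to 73.0) carried a binding site of tagged DPL-1 in their promoter window in L1 larvae, beside 14.3% of all 19973 protein-coding genes. The 55 were taken from the WBcel235 annotation by symbol alone, as every protein-coding gene named snr-, snrp-, lsm-, gut-, prp-, rsp-, uaf-, sftb- or rnp- with a number, and a few of them, such as lsm-1 and rnp-8, are known for other roles than splicing. A gene was counted as bound when the summit of a peak fell inside its promoter window, which opens 1000 bp before an annotated transcript start and closes 200 bp after it. Brackets hold exact 95% Clopper-Pearson intervals over genes or peaks, which cover counting error only.

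The spliceosome removes introns from newly made RNA and is assembled from small nuclear ribonucleoproteins (snRNPs), each a short RNA with a ring of Sm or LSm proteins and particle-specific proteins, together with non-snRNP factors such as the SR proteins, which bind exons and help splice sites to be recognised. In C. elegans the same machinery also joins a spliced leader to many transcripts. This joining has a part in dividing the transcripts of operons, runs of neighbouring genes read from a shared promoter, into single messages. DPL-1 is the worm DP protein: it pairs with E2F proteins on DNA and is a subunit of the DREAM complex, known mostly for keeping cell-cycle and germline genes off in somatic cells. In that complex E2F-DP binds E2F motifs and LIN-54 binds a second element, the cell cycle genes homology region (CHR).

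The animals were whole L1 larvae of strain OP105, which carries the unc119(ed3) allele and the array wgIs105, written as dpl-1::TY1 EGFP FLAG together with unc119, with males and females pooled and their age given as unknown. Both samples thus share the unc-119 mutation, its rescue and the tagged transgene. The labels list no change at the endogenous dpl-1 gene and name no promoter for the transgene. There was 1 group of 2 biological replicates, so nothing was compared between conditions. The description names eGFP-dpl-1 as the target while the antibody entry reads dpl-1, and the control experiment that the labels mention was not analysed here. Peak lists give no read counts, so sequencing depth is unknown, and in whole animals the cell types that carry a site cannot be told apart. The IDR list, which the authors filtered by the irreproducible discovery rate between replicates, held 2797 peaks with signals from 30.3 to 2461. For each replicate its own 2797 strongest peaks were used, called its top list here.

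The first set of sequences is shown because 21 of the 31 member peaks hold the word TTCGAA within 100 bp of the summit. The word has 6 letters and stands in capitals below. It is the C form of the CHR motif and reads the same on both strands. Each line gives a member, the ce11 (WBcel235) position, the strand printed, which is that of the first gene named, and the reference genome (RefSeq copy) from 5′ to 3′ around the copy nearest the summit.
snrp-3, chrIV:8687889-8687914, minus strand: gaaaccgattTTCGAAtactctcagt
rsp-6, chrIV:7791445-7791470, minus strand: gaaattttcgTTCGAAttcgcgccgt
prp-8, chrIII:8164119-8164144, plus strand: aaattttactTTCGAAaatagaaatt
rsp-3, chrIII:12688137-12688162, minus strand: tcgttattttTTCGAAaacgaaggcc
prp-19, chrIII:5172651-5172676, minus strand: actgcagtttTTCGAAttctcattgc
snr-4, chrV:11979973-11979998, minus strand: ggtcgtctttTTCGAAttgcaatcgc
rsp-5 and snr-3, chrII:6489931-6489956, plus strand: tttgagcacaTTCGAAaatgcaaaag
lsm-7, chrIV:10933272-10933297, plus strand: gcgctgtgtgTTCGAAaagtgcgtca
snr-1, chrIV:17087692-17087717, plus strand: gtgccttattTTCGAAttttattccc
sftb-2, chrV:128113-128138, plus strand: ttgcgtactcTTCGAAttaaattttt
snr-5, chrIII:7861760-7861785, plus strand: tagcgcaactTTCGAAaattcaaggt

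The second set shows whole summit regions of 4 members or pairs, because they differ in which motifs they hold, if any. Capitals mark every E2F motif (TTCCCGC or TTCGCGC or TTGGCGC or TTGCCGC) and every CHR motif (TTTGAA or TTCGAA), read on either strand, so that TTTGAA can appear as TTCAAA. The summit is the middle base.
rsp-3, chrIII:12688142-12688242, minus strand: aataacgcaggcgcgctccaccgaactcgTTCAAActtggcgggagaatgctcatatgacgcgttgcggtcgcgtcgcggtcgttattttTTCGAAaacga
snr-4, chrV:11980002-11980102, minus strand: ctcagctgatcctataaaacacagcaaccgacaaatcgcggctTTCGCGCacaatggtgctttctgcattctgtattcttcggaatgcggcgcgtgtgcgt
prp-40, chrIII:9521843-9521943, plus strand: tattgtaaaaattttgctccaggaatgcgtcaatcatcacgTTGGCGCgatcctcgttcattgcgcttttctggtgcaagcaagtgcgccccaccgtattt
rsp-1 and rsp-2, chrII:11453148-11453248, plus strand: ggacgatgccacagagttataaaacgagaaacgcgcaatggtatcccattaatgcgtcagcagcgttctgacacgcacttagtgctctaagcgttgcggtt
The rsp-3 region holds both CHR forms, and those of snr-4 and prp-40 hold an E2F motif within a few bases of the summit. That of rsp-1 and rsp-2 holds neither motif in the bases shown. Farther out but within 100 bp of the summit, the peak of rsp-1 and rsp-2 has a CHR motif and that of snr-4 has TTCGAA.

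The replicates' own lists gave like shares. Replicate 1 bound 35 members (63.6%) in its top list, beside 14.4% of all genes. Replicate 2 bound 32 (58.2%), beside 13.8%. The mean of the replicates was 60.9% ± 3.86 (SD, n = 2). The top lists of both replicates bound 32 members (58.2%), beside 12.4% of all genes. These 32 are also bound in the IDR list, and 20 members were bound in none of the 3 lists. The remaining 3 members, prp-6, prp-9 and prp-21, were bound in 1 or 2 of the lists. Each of the 33 bound members had exactly 1 IDR peak in its window, and these were 31 different peaks, because rsp-1 with rsp-2 and rsp-5 with snr-3 share theirs.

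**Figure D1:**
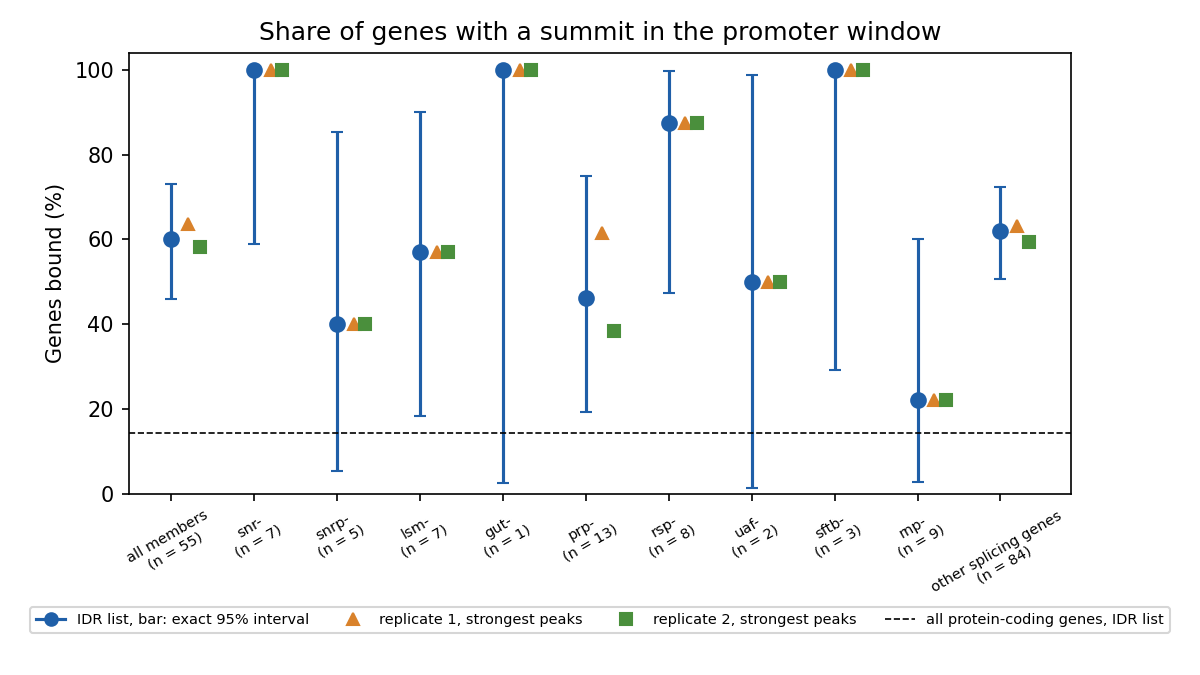
Share of genes bound (y axis, percent) for all 55 members, for each symbol prefix and for 84 other splicing genes; circles with exact 95% intervals are the IDR list, triangles and squares the top lists of replicates 1 and 2, and the dashed line is all protein-coding genes, 14.3%. The snr- and sftb- genes stand at 100%, rnp- at 22.2%, and only prp- shows the replicates apart among the prefixes.

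The Sm proteins form the ring that holds the spliceosomal snRNAs, and all 7 snr- genes that encode them were bound (59.0 to 100%), with 7 in each replicate too. Their signals ran from 40.8 at snr-7 (SmG) to 774 at snr-6 (SmE), with a median of 128. The snr-6 peak had a signal of 511 in replicate 1 and 265 in replicate 2, ranking 73rd in the IDR list, 60th in replicate 1 and 84th in replicate 2. Its summit at III:12429900 lies 271 bp upstream of snr-6 and 609 bp upstream of Y49E10.16, a gene on the opposite strand. It is the strongest member peak in all 3 lists, and snr-6 is the one member with a peak among the 100 strongest of the IDR list.

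The snr-2 gene encodes SmB and had the next strongest Sm peak. That signal was 466 (276 in replicate 1 and 190 in replicate 2), with ranks of 184 in the IDR list, 212 in replicate 1 and 159 in replicate 2. The summit, I:13339040, lies 357 bp upstream of snr-2 and 109 bp upstream of W08E3.4. At snr-4, a gene for an SmD-type protein, the signal was 177 (104 and 70.0 in the replicates) and the ranks were 604, 649 and 578, with a summit at V:11980052, 329 bp upstream, that no other gene's window holds. The snr-3 peak (128) is shared with rsp-5, and the other Sm genes were lower, at 97.3 for snr-1, 48.3 for snr-5 (SmF) and 40.8 for snr-7. The 5 strongest Sm peaks stood in the same order in both replicates, while snr-5 and snr-7 changed places.

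The LSm proteins build the like ring of the U6 snRNP. Of 7 lsm- genes, 4 were bound (57.1%, 18.4 to 90.1), again 4 in each replicate, and gut-2, which encodes another LSm ring subunit, was bound as well. The strongest was lsm-5, with a signal of 384 (270 and 115 in the replicates) and ranks of 253 in the IDR list, 220 in replicate 1 and 340 in replicate 2. Its summit at V:15569921 is 459 bp upstream and falls in no other gene's window. Next came lsm-1 (125), whose product belongs to the cytoplasmic ring that acts in mRNA decay and not in splicing, then lsm-7 (123) and lsm-3 (95.4). The lsm-1 peak is shared with rps-9, which encodes a ribosomal protein and lies nearer, 246 bp from the summit against 342 bp. The gut-2 peak at V:13497672, 18 bp upstream, had a signal of 81.6 (54.7 and 23.5), ranks of 1254, 1153 and 1642, and is shared with eea-1. Not bound were lsm-4, lsm-6 and lsm-8, the last being the subunit that sets the nuclear ring apart from the cytoplasmic one.

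Genes for recognition of splice sites by the U1 and U2 particles were bound unevenly. The snrp-3 gene encodes the U1-C protein and had the second strongest member peak, with a signal of 561 (355 and 213) and ranks of 140, 134 and 136. Its summit at IV:8687992, 182 bp upstream, lies in no other window. The U1-associated factor gene prp-40 had a signal of 240 (134 and 105), ranks of 462, 506 and 384 and a summit at III:9521893, 182 bp upstream, shared with clu-1. By contrast rnp-7, which encodes the U1-70K protein, and prp-39, another U1-associated factor gene, were not bound. The rnp-2 gene encodes an RNA-binding protein of the U1 and U2 snRNPs: its peak at IV:4171991, 85 bp upstream and shared with K08D10.13, had a signal of 80.9 (54.7 and 28.5) and ranks of 1266, 1152 and 1383. Its neighbour and close relative rnp-3 was not bound.

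All 3 sftb- genes, for subunits of the SF3B complex that holds the U2 snRNP on the branch site, were bound (29.2 to 100%), in both replicates too. The strongest, sftb-1, had a signal of 110 (59.3 and 50.5), ranks of 946, 1067 and 813 and a summit at III:4269726, 456 bp upstream of sftb-1 but 17 bp upstream of R10E4.1. The peaks of sftb-2 (77.3) and sftb-6 (71.1) likewise lie nearer to a gene on the other strand, W03F9.2 and luc-7L3. For the SF3A complex, which works beside SF3B, prp-21 was bound at 46.1 and prp-9 was not. Of the U2AF pair, which reads the end of the intron, the small subunit gene uaf-2 was bound, with a signal of 46.2 (26.5 and 16.4), ranks of 1987, 2104 and 2235 and a summit at IV:17118824, 57 bp upstream and shared with itsn-1. The large subunit gene uaf-1 was not bound.

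In the U5 and U4/U6 particles, whose proteins drive the later rearrangements, prp-8 stood out. It encodes the large scaffold protein at the centre of the spliceosome and had a signal of 415 (248 and 166), with ranks of 227, 244 and 201. Its summit at III:8164073 is 300 bp upstream of prp-8 and 690 bp upstream of bath-42. The U5 gene snrp-40.1 (44.4) and the U4/U6 gene prp-31 (44.8) were bound weakly. The helicase gene snrp-200, the related snrp-40.2, the U4/U6 genes prp-3 and prp-4, and prp-6, prp-38 and snrp-27 of the tri-snRNP were not bound, so that the 5 snrp- genes gave 2 bound (40%, 5.27 to 85.3).

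Among the other prp- genes, prp-19, for a ubiquitin ligase that is the core of a spliceosome-activating complex, had a signal of 263 (168 and 99.6) and ranks of 422, 411 and 418. Its summit at III:5172679 is 634 bp upstream of prp-19 but 41 bp upstream of K10D2.5, and emb-1 also holds it in its window. For the second catalytic step, prp-18 was bound (60.2) and prp-17 was not. In all, 6 of 13 prp- genes were bound (46.2%, 19.2 to 74.9), with 8 in replicate 1 and 5 in replicate 2, a mean of 50% ± 16.3 (SD, n = 2). This was the one prefix whose count changed between the lists.

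The SR proteins were bound nearly throughout. Of 8 rsp- genes, 7 had a peak (87.5%, 47.3 to 99.7), with 7 in each replicate too, and their median signal of 247 was the highest of any prefix with more than 2 bound genes. The rsp-6 peak reached 472 (289 and 182), with ranks of 180, 194 and 170 and a summit at IV:7791409, 180 bp upstream and in no other window. That of rsp-3, the worm gene for the SF2/ASF-type protein, reached 395 (260 and 139), with ranks of 242, 229 and 259 and a summit at III:12688192, 270 bp upstream, shared with spin-4. A single peak at II:11453198 lies between the divergent rsp-1 and rsp-2, 164 bp upstream of the former and 243 bp upstream of the latter, with a signal of 247 (140 and 108) and ranks of 446, 482 and 371.

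The rsp-5 and snr-3 genes also face each other across 1 peak, at II:6489982, of signal 128. That of rsp-7 (127) is shared with snu-13, which encodes a U4/U6 snRNP protein, and rsp-8, a Tra2-type gene, had the lowest SR signal, 49.2, 595 bp upstream. The exception was rsp-4, the worm gene for the SC35-type protein: it had no summit in its window in replicate 1 and one of rank 16227 in replicate 2.

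The rnp- genes encode RNA-binding proteins of mixed function and had the lowest share, 2 of 9 bound (22.2%, 2.81 to 60.0), an interval that includes the 14.3% of all genes. Besides rnp-2, only rnp-6 was bound, at a signal of 50, in a window shared with rde-10. The rnp-6 product is of the PUF60 type, a factor that helps U2AF. Without a peak were rnp-4 and rnp-5, whose products belong to the exon junction complex and its partners, rnp-8, whose product works with the GLD-2 poly(A) polymerase in the germline and is not known as a splicing factor, and rnp-1, rnp-3, rnp-7 and rnp-9.

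**Figure D2:**
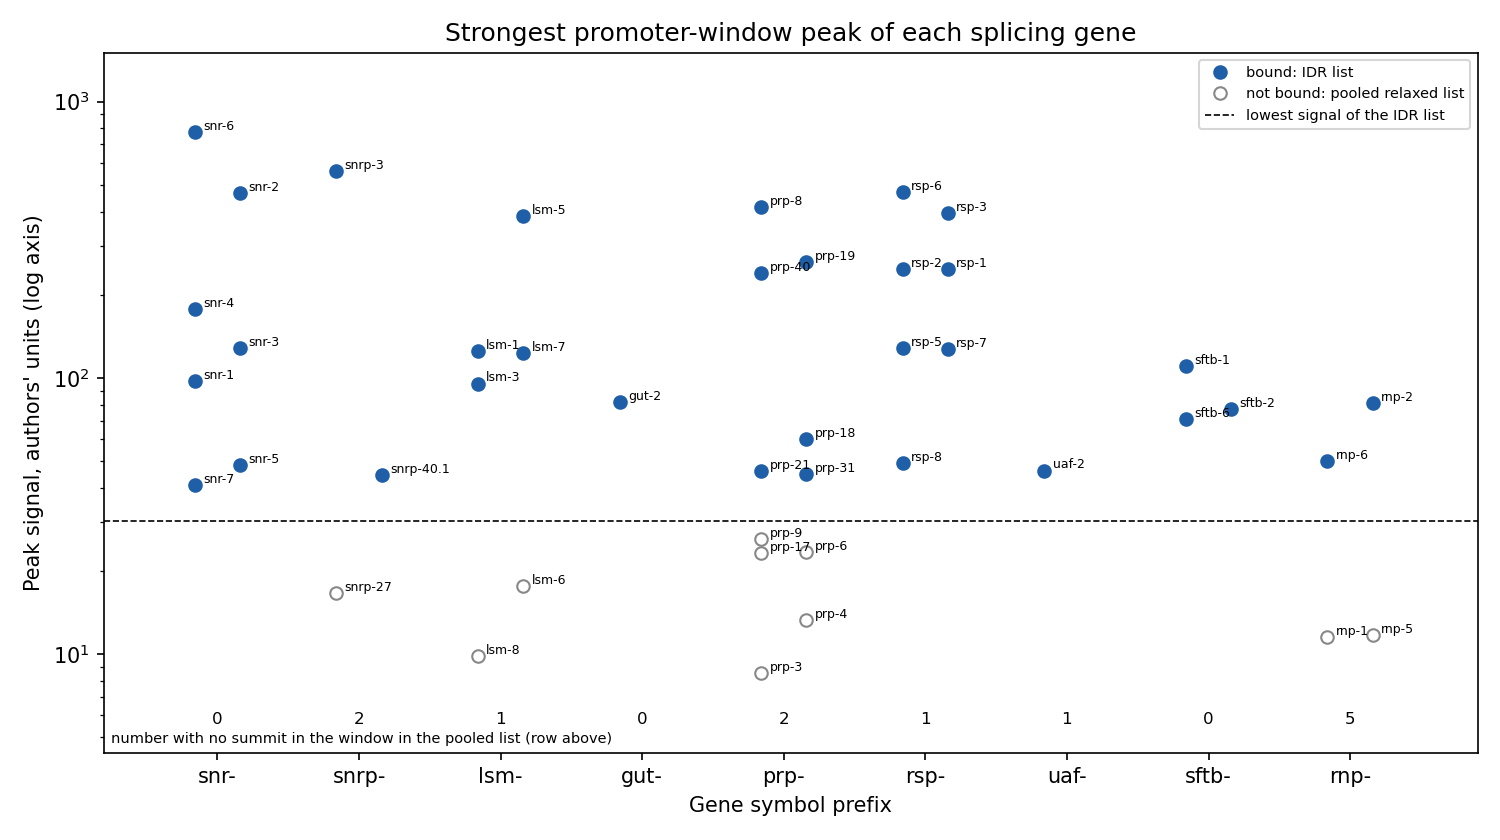
Signal of the strongest promoter-window peak (y axis, log scale, in the units of the authors' caller) of each member, by prefix; filled circles are bound genes, open circles unbound genes with a summit in the pooled relaxed list, and the digits at the foot count genes with no summit there. Bound genes lie between 40.8 and 774 and unbound ones between 8.52 and 26.1. The IDR list holds the strongest pooled peaks, so the split at its lowest signal, 30.3, follows from the rule for calling a gene bound.

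Bound members were spread over the signal range of bound genes. Their median signal was 123, with quartiles of 60.2 and 247, beside 95.1, with quartiles of 52.3 and 212, for all 2866 bound genes. The median member stood at percentile 58.0 of bound genes, with 11 members (33.3%) in the upper quartile and 8 in the lowest. The weakest bound members were snr-7 (40.8), snrp-40.1 (44.4), prp-31 (44.8), prp-21 (46.1) and uaf-2 (46.2). Just below the authors' threshold stood prp-9 at 26.1, with a pooled rank of 3194, then prp-6 at 23.5 and prp-17 at 23.3, all from the pooled relaxed list.

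Peaks of members lay upstream of the gene in 32 of 33 cases, beside 2735 of all 2866 bound genes. These 32 summits lie outside the bodies of protein-coding genes, the only genes considered. The exception was snrp-40.1, with a summit 8 bp downstream of its start in its own 5′ UTR. The median summit stood 236 bp upstream, with quartiles of 164 and 329, beside 219 bp, with quartiles of 126 and 393, for all bound genes. Within 200 bp of the 5′ end lay 13 member summits (39.4%) beside 45.4% for all bound genes. The farthest was that of lsm-3, 944 bp upstream, which is 65 bp upstream of Y62E10A.23 on the same strand and 168 bp upstream of Y62E10A.20 on the other.

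**Figure D3:**
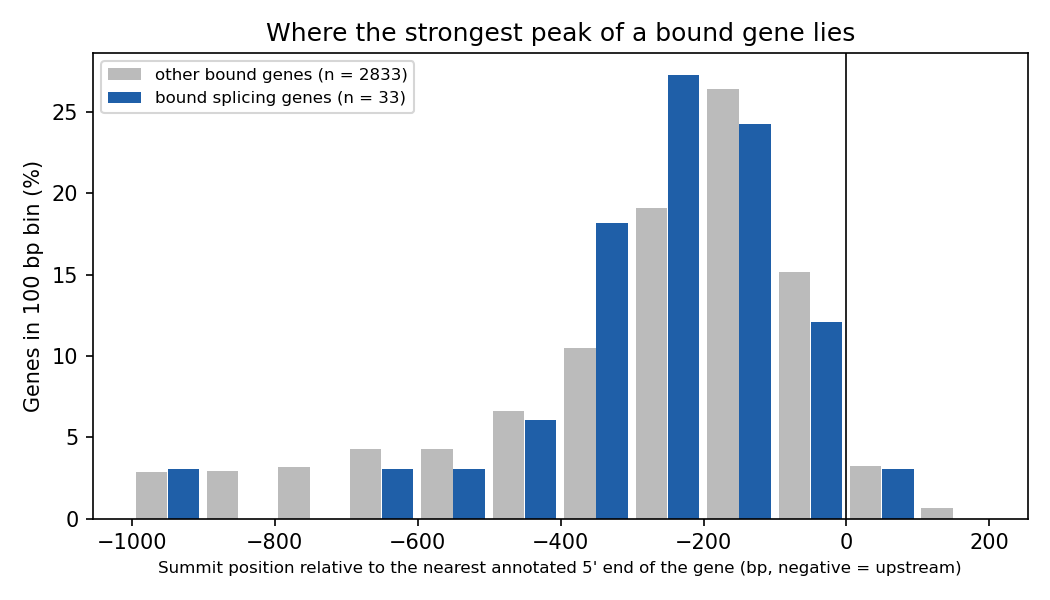
Position of the summit of each bound gene's strongest peak relative to its nearest annotated 5′ end (x axis, bp, negative upstream) as the percent of genes per 100 bp bin (y axis), for 33 bound splicing genes and all other bound genes. Both distributions peak within 300 bp upstream, with medians of 236 bp for members and 219 bp for all bound genes.

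Most of these peaks cannot be assigned to 1 gene. Of the 33 bound members, 28 (84.8%) had a peak that also lies in the window of another gene, beside 57.4% of all bound genes. In all 28 a gene on the opposite strand shares the peak. The lsm-3 peak also lies in the windows of Y62E10A.23 and mdt-9 on the same strand. The 5 with a peak to themselves were lsm-5, rsp-6, rsp-8, snr-4 and snrp-3. When each summit was given to the nearest gene only, 19 members (34.5%) remained bound, beside 10.2% of all genes by the same rule. None of the 3 sftb- genes and 3 of the 7 snr- genes were among these.

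The replicates ranked the member peaks alike. All 33 bound members had a summit within 100 bp of the IDR summit among all peaks of replicate 1, and 32 had one among those of replicate 2. At the 30 different peaks matched in both, the signals of the replicates correlated with rho 0.935 (Spearman) and, after log2 transformation, with r 0.952 (Pearson). These are descriptions over peaks that were selected by their pooled signal and rest on the same 2 libraries. The larger of the 2 ranks was at the median 1.21 times the smaller and at most 2.07 times. Replicate summits lay at the median 7 bp from the IDR summit and at most 49 bp.

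The members that the lists disagree on were weak. The prp-21 peak at II:484630, 236 bp upstream and shared with gldi-1, ranked 1995 in the IDR list and 1807 in replicate 1 (signal 31.8), but 3741 in replicate 2 (9.57), below its top list. The prp-9 window held a summit of rank 2497 in replicate 1 (21.7) and 7929 in replicate 2 (6.16). That of prp-6 held one of rank 2382 in replicate 1 (22.7), 889 bp upstream, and none in the full list of replicate 2. For sftb-6, the IDR summit 301 bp upstream had no match in replicate 2, where the window's summit stood 183 bp upstream instead with a rank of 2556 (14.1).

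**Figure D4:**
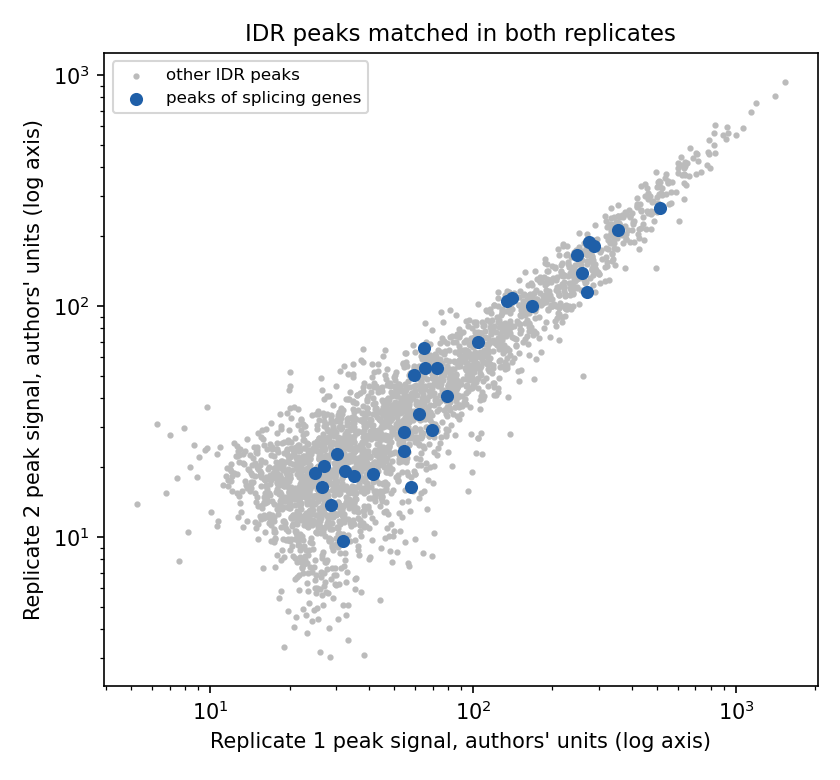
Signal in replicate 1 (x axis) against replicate 2 (y axis), both log scales in the authors' units, at IDR peaks matched in both; dark points are the 30 splicing gene peaks. They follow the other peaks, from snr-6 (511 and 265) down to prp-21 (31.8 and 9.57).

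Unbound members had weak summits or none, and a pooled summit strong enough for the IDR list would have made them bound. In the full lists, 6 of the 22 (27.3%) had a summit in the window in both replicates, beside 19.5% of all unbound genes, and these were lsm-6, lsm-8, prp-9, prp-17, rnp-8 and snrp-27. A further 11 had one in 1 replicate, and prp-3, rnp-3, rnp-4, rnp-7 and rnp-9 had none. The pooled relaxed list held a summit for 10 of the 22, with signals from 8.52 at prp-3 to 26.1 at prp-9 and a median of 15. The best of these in replicate 1 after prp-6 and prp-9 was lsm-6, with a rank of 3178.

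The position of a member among its neighbours went with its binding. A gene was called downstream in an operon-like run when its 5′ end lies up to 500 bp past the 3′ end of a gene on the same strand. Whether these runs are transcribed as operons was not tested. Of 40 members that stand first or alone, 29 were bound (72.5%, 56.1 to 85.4), beside 15.3% of all such genes. Of 15 downstream members, 4 were bound (26.7%, 7.79 to 55.1), beside 10.2%: lsm-3, lsm-5, rsp-6 and snrp-3. Their gaps to the gene before run from 358 to 483 bp, so with gaps of at most 200 bp none of these 4 counts as downstream. The lsm-3 peak is also a peak of the first gene of its run.

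The other 11 downstream members were unbound, and in all 11 the first gene of the run was bound, beside 30.1% of all unbound downstream genes. For the LSm genes, lsm-6 follows ubc-3 (97.4) and lsm-8 follows sqd-1 (280). Among the prp- genes, prp-3 follows smrd-1 (52.4), prp-38 follows plrg-1 (136), itself a gene of the prp-19 complex, and prp-39 follows hmgs-1 (244). In the rnp- group, rnp-3 follows rnp-2 (80.9), rnp-4 follows snfc-5 (49.8) and rnp-7 follows syf-2 (358), whose product is also a spliceosome protein. The snrp-200 gene follows pisy-1 (165), while snrp-40.2 is the 5th gene of the run led by suco-1 (173) and snrp-27 the 6th of that led by ran-4 (60.7). With gaps of at most 200 bp, the first gene was bound for 7 of 8 unbound downstream members. Counted by themselves or by the first gene of their run, 44 of 55 members (80.0%) had a site, beside 19.2% of all genes. The members left without one either way were lsm-4, prp-4, prp-6, prp-9, prp-17, rnp-1, rnp-5, rnp-8, rnp-9, rsp-4 and uaf-1.

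The word TTCGAA stood within 100 bp of the summit, a window of 201 bp, in 21 of the 31 member peaks (67.7%, 48.6 to 83.3). It was found in 17.9% of the other 2064 promoter peaks (16.2 to 19.6). Equal windows at all protein-coding promoters, centred 219 bp upstream of the 5′ end, held it in 12.6%. The other form, TTTGAA, was in 48.4% of member peaks (30.2 to 66.9) and 45.9% of other promoter peaks, with overlapping intervals. Both forms together were in 27 member peaks (87.1%) beside 56.2% and, at all promoters, 56.7%. The forms were split after their values had been seen. Among all 2080 words of 6 letters, TTCGAA had the largest difference in share between member and other promoter peaks. Its share is thus a description with no test, and its interval does not allow for that choice.

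By prefix, TTCGAA was near the summit at 7 of 7 bound snr- genes, 3 of 3 sftb- genes, 4 of 6 prp- genes and 4 of 7 rsp- genes. It was at 1 of 4 lsm- genes, lsm-7, at 1 of 2 each of snrp- and rnp- genes, at uaf-2 and not at gut-2. The site centre lay at the median 48.5 bp from the summit, about the middle of the 100 bp searched on each side. The word is thus not shown to gather at the summit itself. Within 150 bp it was in 24 member peaks. With the whole word within 50 bp, it was in 10 of 31 member peaks and 7.27% of other promoter peaks. Member peaks with the word had a median signal of 123 and the 10 without it 88.5. G and C made up 39.9% of the bases in member peaks, 40.3% in other promoter peaks and 34.3% in the windows at all promoters, and the part of base composition in these shares was not tested.

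Of the 22 promoters of unbound members, 3 held the word (13.6%, 2.91 to 34.9), beside the 12.6% of all promoters. An E2F motif was near 5 of the 31 member summits (16.1%, 5.45 to 33.7), those of prp-40, rsp-6, sftb-1, snr-1 and snr-4, beside 24.2% of other promoter peaks (22.3 to 26.1) and 6.95% of all promoters. The copies at snr-4, prp-40 and snr-1 lie 4, 6 and 6 bp from the summit. A match of these letters shows neither that DPL-1 nor that LIN-54 binds there, and what the word has to do with the binding was not tested.

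**Figure D5:**
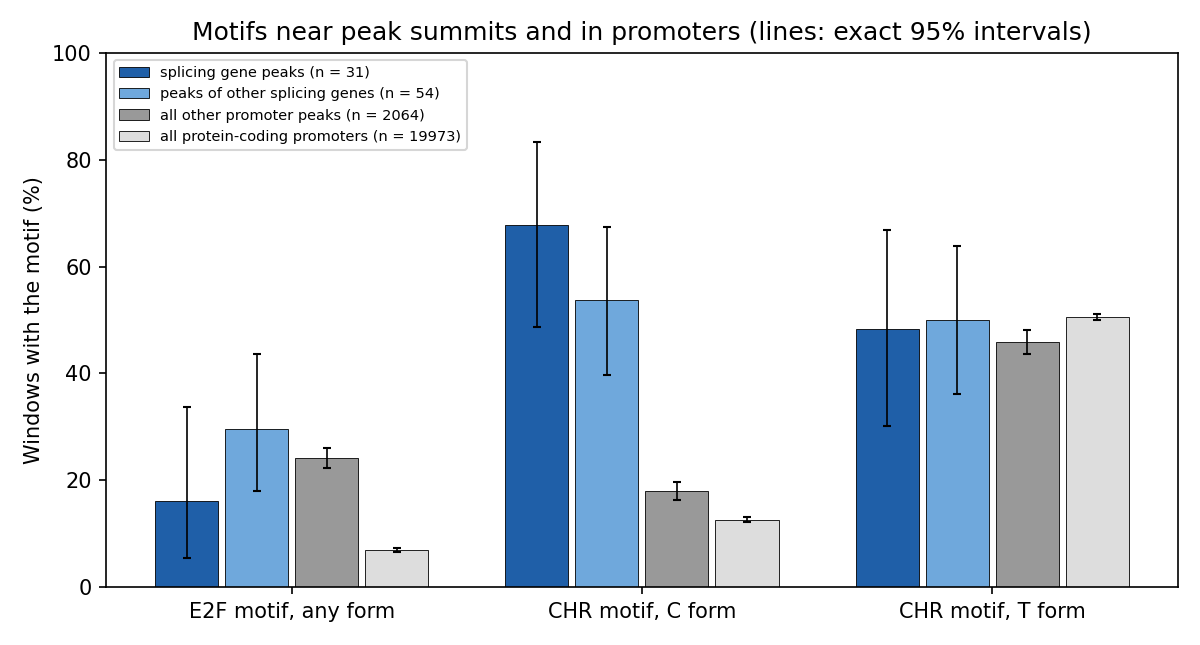
Percent of 201 bp windows (y axis) with an E2F motif or with the C or T form of the CHR motif, for 31 splicing gene peaks, 54 peaks of other splicing genes, all 2064 other promoter peaks (which include those 54) and all protein-coding promoters; lines are exact 95% intervals. The C form stands at 67.7% in splicing gene peaks and 17.9% in other promoter peaks, while the T form stands between 45.9% and 50.5% in the 4 sets.

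Further splicing genes named outside the 9 prefixes gave a like share. Of 84 such genes, 52 were bound (61.9%, 50.7 to 72.3), with 61.3% ± 2.53 in the replicates (SD, n = 2). The strongest were smu-1 (1150, rank 22), for a spliceosome protein, and syf-3 (1005, rank 36), for a protein of the prp-19 complex, then the hnRNP-type gene hrpu-2 (823), rsr-1 (783), for an SR-related matrix protein, and the hnRNP A gene hrpa-1 (732). All but hrpa-1 exceeded the highest signal of a member, that of snr-6 (774). TTCGAA was near the summit in 29 of their 54 peaks (53.7%, 39.6 to 67.4). Of the 390 promoter peaks with the word, 50 (12.8%) belonged to a member or another splicing gene, which make up 4.06% of promoter peaks. The 50 include the 21 member peaks in which the word was picked out, so the 12.8% is not free of that choice. Of the peaks at no splicing gene 16.9% had the word.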

How the data were processed

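Peak lists of 2 replicates of tagged DPL-1 ChIP-seq in L1 larvae were used on the ce11 build. Per the file headers of the deposited listing, the authors derived relaxed lists from alignments and a control file, and the IDR list from those. For the aligner, peak caller, IDR threshold and signal scale, the status is: not given in the sources used here. Each peak's deposited signal is the authors' value and served to rank peaks and give medians within a list, and to correlate the replicates at matched member peaks. The other deposited column used was the summit offset: the summit is start plus offset, given 1-based. The IDR list held the 2797 strongest of 23883 pooled peaks, so its values are pooled, and replicate lists of 30000 were shortened to 2797. Genes came from Ensembl release 115, on the 6 nuclear chromosomes, and bases from the RefSeq genome, where 99.89% of 31805 annotated start codons read ATG. Python 3.11.15 and SciPy 1.17.1 were used. Window assignment was tested on simulated data. No p-value was computed.

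The members, lists and motifs were chosen with earlier results of these data known. Named in full are the 12 strongest bound members, the strongest of each prefix and those bound in only some lists. Of 90 other splicing gene names, 84 matched, and the 5 strongest are named. Other names, such as neighbours, were chosen after their values were seen. It is not stated how reads mapping to several places were treated, which bears on close paralogs such as rnp-2 and rnp-3. Annotated 5′ ends of trans-spliced genes can lie inside the transcript. The sequence at the snr-6 peak is not reported here.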

Additional observations from a re-analysis of the deposited data

How the results depend on the processing

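No paired analysis was possible because there is 1 group of 2 replicates. Of 147 alternatives over 20 results, 127 gave a like value and 20 moved. A like value was a count within a set ratio of the main count, or a median within the spread of the replicate lists. Only the signed summit position could have reversed, and it did not. Bound members numbered 30 with windows of 500 bp, 37 with 2000 bp, 34 by peak overlap, and 32 to 35 when either replicate was left out. Giving summits to the nearest gene only left 19 members (34.5%) bound, beside 10.2% of all genes. Among them were 3 of snr-, 1 of lsm-, 1 of rnp- and 0 of sftb-. With peaks above the median signal, 23 members (41.8%) were bound, beside 8.88% of all genes. Of these, snrp- had 1, prp- 3, uaf- 0 and rnp- 1, and the median percentile was 52.2. Without operon-like downstream genes, snrp- had 1 and lsm- 2 bound. Windows of 2000 bp raised rnp- to 5 of 9, beside 17.7% of all genes. With replicate lists of 1398 peaks, 21 members were bound in both, and the share of all genes was not counted for these lists. The median summit position was -270 bp with 2000 bp windows and with peaks above the median signal, and -261 to -240 bp with 1 replicate left out. Within 50 bp of the summit, CHR was in 14 and TTCGAA in 10 peaks, the latter chosen after seeing the data. With operon-like gaps of 200 bp, the first gene was bound for 7 of 8 unbound downstream members. The count of members with a site of their own or at the first gene, also added after seeing the data, ran from 31 to 46. The share of all genes was not counted for these alternatives. The cause of these changes was not tested. Some settings counted fewer peaks or genes, others widened the window, and the nearest gene rule gave each shared summit to 1 gene. Unknown depth leaves it unmeasured what weak sites these lists could miss.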

Other observations

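The other splicing genes divided by role as follows. Of 28 genes for SR kinases and splicing regulators, 18 were bound (64.3%, 44.1 to 81.4), among them the SR protein kinase gene spk-1 at a signal of 96.8. The 10 without a peak were asd-2, etr-1, exc-7, fox-1, hrpl-1, mbl-1, mec-8, ptb-1, sup-12 and unc-75. Of the Fox-type genes, asd-1 was bound (63.9) and fox-1 was not. Of 44 further genes for core spliceosome proteins, 27 were bound (61.4%, 45.5 to 75.6). Of 9 genes for snRNP assembly, cap binding and the exon junction, 5 were bound, including both cap-binding genes ncbp-1 (54.3) and ncbp-2 (61.3), while smn-1, for the protein that loads Sm rings, was not. Of 3 trans-splicing genes, sna-2 (299) and sna-3 (125) were bound and sna-1 was not. All these genes were chosen with earlier results of these data known.

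Members were bound on every chromosome: 4 of 10 on I, 8 of 12 on II, 8 of 13 on III, 8 of 10 on IV, 4 of 8 on V and 1 of 2 on X. The corresponding shares of all protein-coding genes were 21.7%, 14.9%, 24.3%, 13.9%, 8.97% and 6.63%. The strongest peaks of the first genes of runs that hold an unbound member, leaving out the rnp-2 peak, held TTCGAA near the summit in 3 of 10 cases (interval 6.67 to 65.2%) and an E2F motif in 0 of 10.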
